A study of Mus musculus with 2 samples.

Results

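The genes followed were Sntg1, Hsd11b2, Cadps2, Syn2, Mafa, Ucma, Ptpru, Tspear, Cib3 and Trnp1, 10 of the 31053 genes counted in the series. They had been picked as genes that mark cells rich in galanin (Gal) and cholecystokinin (Cck) transcripts, and all 10 were present in both libraries. A cell was placed in the Gal and Cck gate when it held at least 30 Gal and at least 10 Cck unique molecular identifiers (UMIs, each a tag for 1 captured transcript) per 10000 UMIs. The cells came from cochlear explants of wild-type C57BL/6J mice aged 4 to 6 weeks. The cocktail explants received valproic acid (VPA, 1.5 mM), lithium chloride (LiCl, 8 mM), forskolin (FSK, 20 µM) and siRNAs against FIR and Mxi1 (0.02 µM each) for 4 days. They then received an adenovirus that overexpresses the transcription factor Atoh1 (ad.Atoh1) for 2 weeks. The vehicle explants received sterile water with 0.1% DMSO for 4 days and the same virus for 2 weeks, so both groups carried ad.Atoh1. In each condition 5 cultures were pooled into 1 single-cell 3′ library from the dissociated sensory epithelium. With 2 libraries in all, no difference below has a replicate check and no p-value is given. Intervals are exact 95% intervals for counting error only.

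The 10 genes do not belong to a single pathway. Cadps2 primes peptide-filled dense core vesicles for calcium-triggered release, and Syn2 encodes a synapsin that coats synaptic vesicles. Sntg1 encodes gamma-1 syntrophin, an adaptor that binds dystrophin-type scaffolds. Cib3 encodes a calcium- and integrin-binding protein that, with its relative Cib2, is part of the mechanotransduction complex of mouse vestibular hair cells. Tspear encodes a secreted protein with EAR repeats that has been linked to hearing and to tooth and hair follicle development. Hsd11b2 inactivates glucocorticoids and so keeps the mineralocorticoid receptor for aldosterone. Mafa is a large Maf transcription factor best known from pancreatic beta cells. Ucma encodes a small secreted protein rich in gamma-carboxyglutamate (Gla) that is known from cartilage. Ptpru is a receptor tyrosine phosphatase of the R2B group, and Trnp1 encodes a nuclear protein of neural progenitors. Galanin and cholecystokinin are neuropeptides, and Atoh1 is the factor that starts hair cell development and binds E-box motifs.

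Promoter windows of 300 bases (250 before and 50 after the transcription start) were taken from RefSeq on GRCm38.p6. They were held for 6 of the 10 genes, and not for Sntg1, Hsd11b2, Mafa and Tspear. The 3 shown belong to Cib3, Ucma and Trnp1, which are among the genes described in the Atoh1 and depth comparisons. Capitals mark E-boxes with a CAGCTG core or with a CAGATG core (CATCTG on the other strand), the only matches searched for that the 3 windows hold.
Cib3 (chr8:72212788-72213087, minus strand): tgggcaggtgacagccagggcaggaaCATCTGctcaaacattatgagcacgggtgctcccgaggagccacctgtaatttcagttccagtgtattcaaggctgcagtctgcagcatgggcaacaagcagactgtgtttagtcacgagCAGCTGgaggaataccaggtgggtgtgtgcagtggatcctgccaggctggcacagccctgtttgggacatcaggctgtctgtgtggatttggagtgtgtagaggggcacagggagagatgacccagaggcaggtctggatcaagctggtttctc
Ucma (chr2:4975872-4976171, plus strand): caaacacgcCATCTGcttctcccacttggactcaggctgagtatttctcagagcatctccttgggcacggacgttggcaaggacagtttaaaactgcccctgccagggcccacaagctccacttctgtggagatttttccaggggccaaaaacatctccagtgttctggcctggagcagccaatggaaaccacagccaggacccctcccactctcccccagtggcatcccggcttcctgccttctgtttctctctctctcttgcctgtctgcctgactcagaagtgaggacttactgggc
Trnp1 (chr4:133498501-133498800, minus strand): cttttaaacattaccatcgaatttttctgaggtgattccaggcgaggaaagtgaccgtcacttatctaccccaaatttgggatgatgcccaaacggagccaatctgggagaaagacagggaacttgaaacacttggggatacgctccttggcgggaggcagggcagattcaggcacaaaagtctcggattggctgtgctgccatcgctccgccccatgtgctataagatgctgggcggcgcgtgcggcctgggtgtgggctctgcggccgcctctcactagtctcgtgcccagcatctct
The Cib3 window held CAGCTG at -104 and CATCTG at -224 from the start, counted at the first base of the match. The Ucma window held CATCTG at -241, and the Trnp1 window held neither core. Of the windows not shown, 1 Syn2 window held CATCTG at -110. The other Syn2 window and those of Cadps2 and Ptpru held neither core. CAGCTG was present in 16.3% of all 32851 windows and CAGATG in 17.2%, on either strand. The Maf factor motif TGCTGAC, present in 4.67% of all windows, was in none of the 7 windows of these genes. A match of this kind describes the letters and is not evidence of binding.

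After removal of barcodes with under 500 UMIs, under 300 genes or over 20% mitochondrial UMIs, 1329 cocktail cells (median 10391 UMIs) and 1584 vehicle cells (median 12267 UMIs) were kept. The libraries shared 0 barcodes. Over all kept cells, Atoh1 stood at 74.0 UMIs per 1000000 (CPM) in the cocktail library and 47.7 in the vehicle library, Mxi1 at 53.5 and 106, and Puf60, the gene that encodes FIR, at 59.9 and 59.3. The gate took 232 cocktail cells (17.5%, 15.5 to 19.6) and 159 vehicle cells (10.0%, 8.60 to 11.6). Of these, 118 cocktail and 113 vehicle cells had at least 5000 UMIs, and these deep cells carry most of the description. Against the labelled tissue, hair cell transcripts did not set the gated deep cells apart in the same direction in both libraries. The summed level of 15 hair cell markers was higher in gated than other deep cocktail cells, at 199 and 130 CPM. It was lower in gated than other deep vehicle cells, at 180 and 363. Hair cell-like cluster 21, described below, held 9 cocktail cells, 2 of them gated, and 37 vehicle cells, 1 of them gated. The part of this cluster in these levels was not tested. The 7 fibroblast markers summed to 30.5 in gated and 1014 in other cocktail cells, and to 35.9 and 1590 in vehicle cells. The 10 supporting cell markers summed to 221 and 618 in cocktail cells and to 210 and 465 in vehicle cells. The part of these other transcripts in the results was not tested. The gated cells are therefore named by their 2 peptide genes alone.

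The first comparison sets gated against other deep cells. Because the genes had been picked on this contrast, its values are a description with no test. Sntg1, Tspear and Cib3 stood highest above the other cells in both libraries, Trnp1 came next in cocktail and Mafa in vehicle cells, and Syn2 was not raised 2-fold in either. Levels are CPM, the summed UMIs of a gene per 1000000 summed UMIs of the cells, and differences are log2 ratios of these levels, gated over other.

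**Figure D1:**
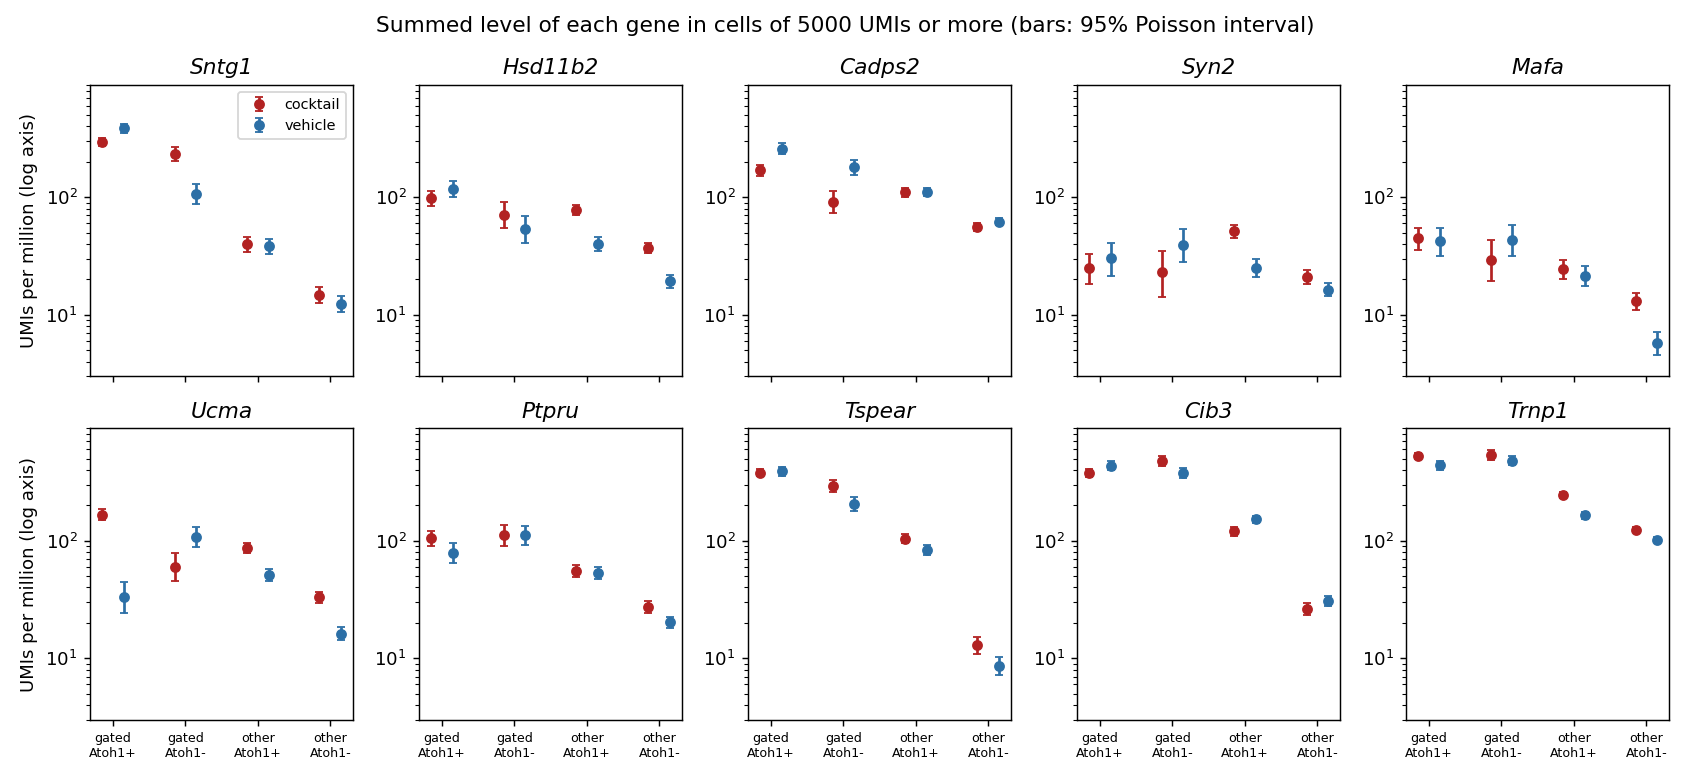
Level of each gene in CPM (log axis) in cells of at least 5000 UMIs, for gated and other cells with and without an Atoh1 UMI, in the cocktail and vehicle libraries. Points are summed levels and bars exact 95% counting intervals. Tspear in cells without an Atoh1 UMI was 293 in gated and 12.9 in other cocktail cells, while Syn2 in cocktail cells with an Atoh1 UMI was 24.9 in gated and 51.4 in other cells.

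Sntg1, the syntrophin, stood at 275 CPM in gated and 22.7 in other cocktail cells (log2 ratio 3.60, 3.41 to 3.78). In vehicle cells it stood at 263 in gated and 19.0 in other cells (3.79, 3.60 to 3.98). These are the largest ratios of the 10 genes in each library. Tspear, the EAR repeat gene, had 352 in gated and 41.9 in other cocktail cells (3.07, 2.93 to 3.21), and 308 and 27.7 in vehicle cells (3.48, 3.32 to 3.64). Cib3 had 409 in gated and 56.0 in other cocktail cells (2.87, 2.74 to 2.99), and 410 and 61.7 in vehicle cells (2.73, 2.61 to 2.86). The gated levels of Sntg1 and Cib3 were thus close to equal in the 2 libraries. Trnp1 had 529 in gated and 163 in other cocktail cells (1.70, 1.60 to 1.79), and 455 and 118 in vehicle cells (1.94, 1.84 to 2.05).

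Ptpru, Ucma, Mafa and Hsd11b2 were also at least 2-fold above other cells, in both libraries or in vehicle cells alone. So was Cadps2, in vehicle cells alone, which is described below with Syn2. Ptpru, the phosphatase, had 107 in gated and 36.1 in other cocktail cells (1.56, 1.36 to 1.76), and 93.2 and 28.5 in vehicle cells (1.71, 1.48 to 1.93). Ucma had the same ratio in both libraries, 1.40, from 133 in gated and 50.2 in other cocktail cells and from 66.2 and 25.1 in vehicle cells. Mafa, the transcription factor, rested on 115 UMIs in gated and 261 in other cocktail cells (39.8 and 16.6 CPM, 1.26, 0.93 to 1.58). In vehicle cells Mafa had 101 and 191 UMIs (42.6 and 9.74 CPM, 2.13, 1.77 to 2.48). For Hsd11b2 the gated levels were alike, 89.4 in cocktail and 89.8 in vehicle cells, while the other cells differed, with 50.0 in cocktail and 24.6 in vehicle cells. Its ratios were accordingly 0.84 (0.63 to 1.04) and 1.87 (1.63 to 2.11).

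Of the vesicle genes Cadps2 and Syn2, Syn2 had the lowest ratio of the 10 in each library. Cadps2 had 144 in gated and 72.7 in other cocktail cells (0.99, 0.82 to 1.15), and 224 and 74.5 in vehicle cells (1.59, 1.44 to 1.73). Syn2 had 24.2 in gated and 30.6 in other cocktail cells (-0.34, -0.72 to 0.03), and 34.2 and 18.6 in vehicle cells (0.88, 0.51 to 1.23). At least 2-fold higher were 7 of the 10 genes in the cocktail library and 9 in the vehicle library, where 7.9% and 8.3% of all genes with at least 50 UMIs over both groups were. All 10 passed that minimum of 50 UMIs in both libraries. The median ratio over the 10 was 1.48 in cocktail and 1.91 in vehicle cells, beside -0.02 and -0.05 over all genes tested. The choice of members fixes these counts, so nothing is read from them. Gal itself stood at 19753 in gated and 1904 in other cocktail cells and at 14931 and 1313 in vehicle cells, and Cck at 5571 and 418 in cocktail and at 5039 and 671 in vehicle cells.

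The share of each gene's UMIs that lay inside the gate varied widely. Gated cells of all depths held 15.8% of the UMIs of the cocktail library and 10.7% of those of the vehicle library. They held 68.4% and 62.2% of the Sntg1 UMIs, 58.5% and 57.2% of the Tspear UMIs, and 59.5% and 43.8% of the Cib3 UMIs. Of the Syn2 UMIs they held 12.8% and 18.3%, below their share of all UMIs in cocktail and above it in vehicle cells.

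The limits of the gate were inspected by splitting the deep cells on each peptide. Cells that met the Gal limit alone numbered 60 in each library, those that met the Cck limit alone 57 in cocktail and 118 in vehicle, and those that met neither 590 and 867. Cib3 and Mafa were no lower with Gal alone than with both peptides. In cocktail cells Cib3 had 409 with both, 416 with Gal alone, 87.6 with Cck alone and 11.5 with neither. In vehicle cells it had 410, 433, 46.4 and 35.7 in the same order. Mafa had 39.8 with both, 50.5 with Gal alone and 23.4 with Cck alone in cocktail cells, and 42.6, 56.8 and 18.7 in vehicle cells. Trnp1 had 529 with both and 508 with Gal alone in cocktail cells, and 455 and 390 in vehicle cells. Sntg1 and Tspear, in contrast, were highest with both peptides. Sntg1 had 275 with both, 129 with Gal alone, 50.2 with Cck alone and 7.45 with neither in cocktail cells, and 263, 43.6, 84.2 and 6.74 in vehicle cells. Ucma was highest with Gal alone, at 201 against 133 with both in cocktail cells and at 109 against 66.2 in vehicle cells.

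Cells just inside the gate (34 cocktail and 42 vehicle cells) and just outside it (31 and 39 cells) differed in no one direction over the 10 genes. Sntg1 had 207 just inside and 173 just outside in cocktail cells, and 319 and 204 in vehicle cells. Tspear had 220 just inside and 316 just outside in cocktail cells, and 199 and 226 in vehicle cells. Cib3 had 425 just inside and 251 just outside in cocktail cells, but 178 and 196 in vehicle cells. Hsd11b2 had 146 just inside and 64.4 just outside in vehicle cells, whereas Syn2 there had 42.0 and 78.8. With the gate widened to 15 Gal and 5 Cck per 10000 UMIs, 20.8% of cocktail and 13.1% of vehicle cells fell inside.

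The cells were clustered on 2000 variable genes that left out the 10 genes, Gal, Cck and Atoh1, which gave 27 clusters over both libraries. Clusters 1, 2, 4 and 17 held 360 of the 391 gated cells, and none of these 4 reached the markers needed for a cell type name. They are described by number.

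**Figure D2:**
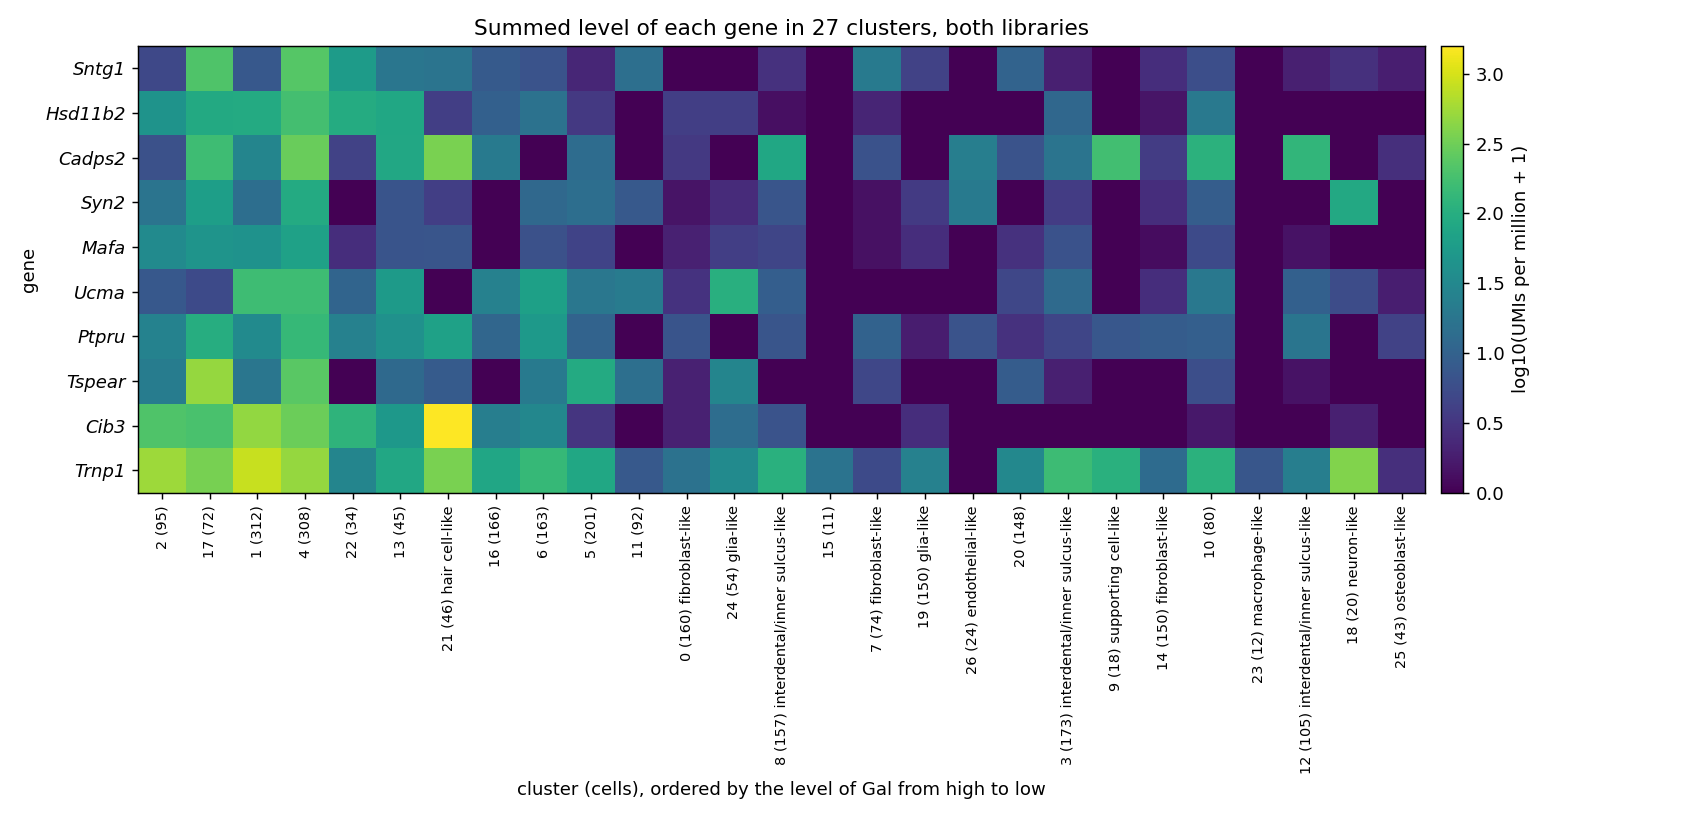
Level of each gene (rows) in each of the 27 clusters (columns, with the number of cells), as log10 of CPM + 1 by colour, both libraries summed, with clusters ordered by their Gal level from high to low. Cluster 4 was high in all 10 genes, from 67.0 for Mafa to 495 for Trnp1, while hair cell-like cluster 21 was high in Cib3 (1583) and at 0 for Ucma.

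Cluster 4 (308 cells, 179 cocktail and 129 vehicle, 113 of them gated) was the only cluster of the 4 with all 10 genes above 60 CPM. It held 79.7% of the cocktail and 71.0% of the vehicle Sntg1 UMIs. Its Sntg1 level was 207 in cocktail and 249 in vehicle cells, and its Cadps2 level 229 and 394. Cluster 4 also ranked first of all clusters for Hsd11b2 (174 over both libraries), Mafa (67.0) and Ptpru (137). For Sntg1 its level, 223, overlapped that of cluster 17, 206, within counting error, as did its Ucma level, 161, with that of cluster 1, 159. For Syn2 its level, 88.4, overlapped that of the neuron-like cluster 18, 83.6.

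Cluster 17 (72 cells, 33 gated) had the highest Tspear level of all clusters, 702 in cocktail and 334 in vehicle cells, but almost no Ucma, 5.41 and 3.30. It also held Otof transcripts (250 over both libraries), which encode the hair cell vesicle protein otoferlin. Only 3 of 15 hair cell markers were raised there, beside 4 of 10 supporting cell markers. Clusters 1 and 2 were shallower and had only some of the 10 genes high. Sntg1, Tspear, Cadps2 and Syn2, low in both, are long genes, and long genes ran lower in shallow gated cells, as described below. Ucma, a short gene, was low in cluster 2 as well. The part of depth and gene length in these cluster levels was not tested. Cluster 1 (312 cells, median 1640.5 UMIs, 160 gated) had the highest Trnp1 level, 859, with Cib3 at 480 and Ucma at 159, but Sntg1 at 6.57. Cluster 2 (95 cells, 54 gated) had Trnp1 at 542 and Cib3 at 209, with Ucma at 6.61 and Sntg1 at 3.97. Mafa stood at 44.9, 41.3 and 33.1 in clusters 17, 1 and 2, and Hsd11b2 at 87.4, 88.2 and 43.6. So Trnp1, Cib3, Mafa and Hsd11b2 ran through all 4 gate-rich clusters. Of these 4 clusters, Sntg1, Tspear, Cadps2 and Syn2 were high in clusters 4 and 17 and Ucma in clusters 4 and 1.

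Several of the genes, with Cib3, Cadps2 and Trnp1 among them, were also high outside the gate-rich clusters. Ucma stood at 102 in Schwann or satellite glia-like cluster 24 and at 64.0 in cluster 6. Hsd11b2 stood at 91.9 in cluster 22 and 80.2 in cluster 13, and Tspear at 89.2 in cluster 5. In hair cell-like cluster 21 (46 cells, 9 cocktail and 37 vehicle, 15 of 15 hair cell markers raised, 3 gated) Cib3 stood at 3484 in cocktail and 1096 in vehicle cells, its highest level in any cluster. Cadps2 was also highest there, at 359 over both libraries, ahead of 293 in cluster 4. Trnp1 stood at 356 and Ptpru at 66.5, whereas Hsd11b2 and Syn2 stood at 2.96 each, Mafa at 5.91, Tspear at 7.39 and Ucma at 0. In neuron-like cluster 18 (20 cells) Trnp1 (392) and Syn2 (83.6) were high and the others near 0. In fibroblast-like cells (186 cocktail, 198 vehicle), which should lack these transcripts, Cib3 had 0 and 1 cells with a UMI. There, Trnp1 stood at 10.9 in cocktail and 9.72 in vehicle cells and Ptpru at 7.94 and 7.23, which gives the level at which free RNA or low expression cannot be told apart.

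Within cluster 4 the gate still split some of the genes and not others. Sntg1 had 357 in gated and 125 in other cells of cluster 4 over both libraries, Cib3 477 and 176, and Tspear 361 and 147. Trnp1 had 510 and 483, Ptpru 127 and 145, and Ucma 146 and 172, which is near equal. Syn2 ran the other way, with 31.5 in gated and 130 in other cells, as did Hsd11b2 with 125 and 210. Mafa and Cadps2 had 50.5 and 79.2, and 257 and 320. Within cluster 4, therefore, Sntg1, Cib3 and Tspear stood higher with the peptides, and Syn2, Hsd11b2, Mafa and Cadps2 lower.

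The next comparison asked whether the genes followed the Atoh1 transcript, which was not part of how a cell entered the gate. UMIs assigned to Atoh1 can come from the cell's own gene or from the adenovirus, and these cannot be told apart here. Cells with an Atoh1 UMI were also deeper. In the gate they had a median of 28073 UMIs against 12971 without in cocktail cells, and 24605.5 against 15726 in vehicle cells. Inside the gate most of the 10 genes differed little with Atoh1, and Ucma went in opposite directions in the 2 libraries.

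**Figure D3:**
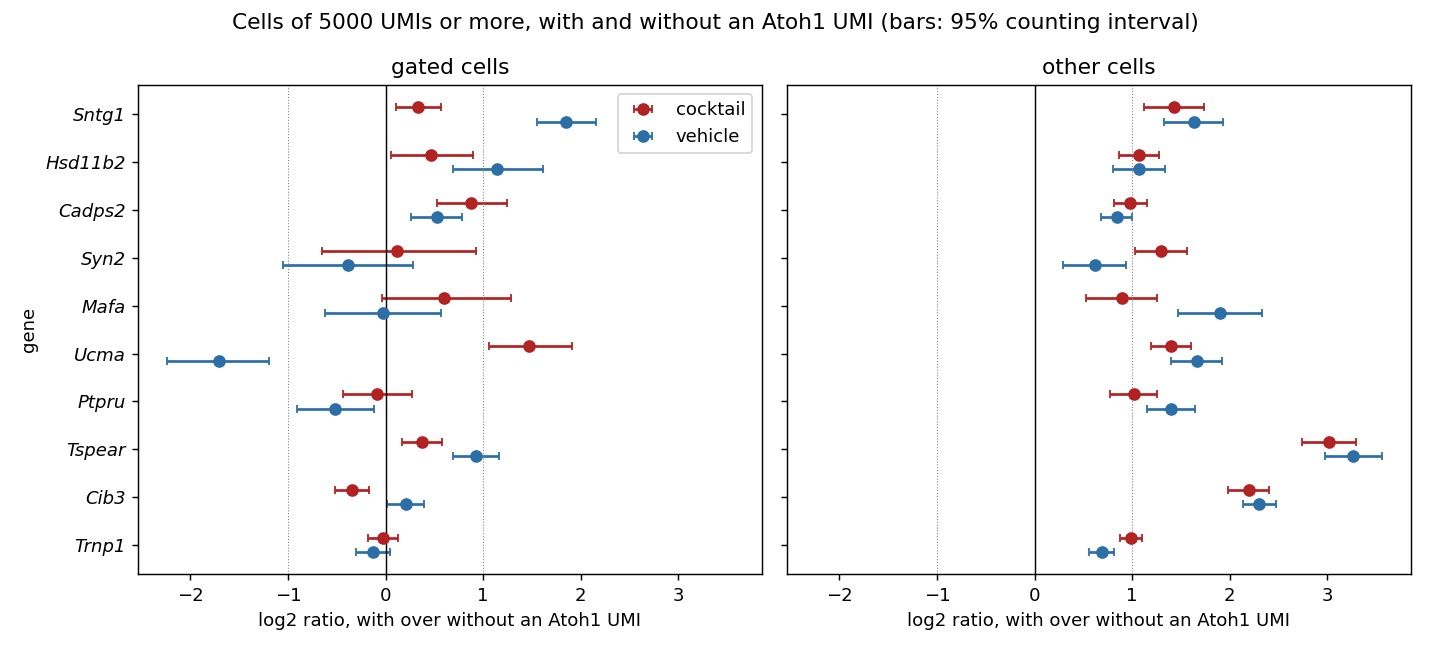
Log2 ratio of each gene's level in cells with over cells without an Atoh1 UMI, at 5000 UMIs or more, inside and outside the gate, for cocktail and vehicle libraries. Bars are 95% counting intervals. Ucma inside the gate was at 1.47 in cocktail and -1.70 in vehicle cells, and Tspear outside the gate was at 3.01 and 3.26.

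In gated cocktail cells Ucma stood at 166 CPM in the 65 cells with and 59.97 in the 53 cells without an Atoh1 UMI (log2 ratio 1.47, 1.06 to 1.91). It was the only one of the 10 at least 2-fold higher, where 10.3% of all genes tested were. In gated vehicle cells Ucma stood at 33.2 in the 54 cells with and 108 in the 59 cells without (-1.70, -2.24 to -1.19), the only one at least 2-fold lower, where 1.48% of genes were. In cocktail cells 38 of 65 with and 14 of 53 without Atoh1 held Ucma, with 42, 40 and 38 UMIs in the 3 highest cells with Atoh1. In vehicle cells 13 of 54 with and 22 of 59 without held it, and 29, 20 and 12 UMIs lay in the 3 highest cells without Atoh1. With Atoh1 called after each cell was reduced to 5000 UMIs, the ratio was 0.22 in cocktail and -1.74 in vehicle cells.

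In gated vehicle cells Sntg1 stood at 385 with and 107 without an Atoh1 UMI (1.85, 1.55 to 2.15) and Hsd11b2 at 118 and 53.6 (1.14, 0.69 to 1.61), the 2 genes at least 2-fold higher where 4.85% of genes were. In gated cocktail cells the same ratios were 0.33 for Sntg1 and 0.47 for Hsd11b2. The Sntg1 UMIs of the 53 cocktail cells without Atoh1 were concentrated, since 1 cell held 82 of the 214 and 3 cells held 68.7%. Without the highest cell of each group the cocktail Sntg1 ratio was 0.82 and the vehicle Hsd11b2 ratio 0.49. With Atoh1 called at 5000 UMIs, the vehicle Sntg1 ratio was 0.48. Cib3 stood at 377 with and 478 without in cocktail cells (-0.34, -0.52 to -0.17) and at 436 and 378 in vehicle cells (0.21, 0.02 to 0.39). The median over the 10 genes was 0.35 in cocktail and 0.09 in vehicle cells, beside 0.24 and 0.12 over all genes tested.

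Outside the gate the picture differed. In each library 7 of the 10 genes were at least 2-fold higher in cells with an Atoh1 UMI, where 10.9% of genes in cocktail and 9.19% in vehicle cells were. None was at least 2-fold lower, where 9.51% and 10.3% of genes were. Cells with Atoh1 here also held more of the gate peptides. Gal stood at 3659 with and 1087 without in cocktail cells, and at 2714 and 835 in vehicle cells. Cck stood at 745 and 266 in cocktail cells, and at 1618 and 347 in vehicle cells. The genes had been picked for cells rich in these peptides, so nothing is read from the counts of genes. Tspear stood at 104 with and 12.9 without in cocktail cells (3.01) and at 83.4 and 8.68 in vehicle cells (3.26). Cib3 stood at 120 and 26.3 in cocktail cells (2.19) and at 152 and 30.8 in vehicle cells (2.30). Tspear, Cib3, Sntg1, Hsd11b2, Ucma and Ptpru passed in both libraries, Syn2 (1.30) in cocktail and Mafa (1.90) in vehicle cells. The groups differed in depth here too, at medians of 25345 with and 18606 without in cocktail and 20670 and 15041 in vehicle cells. With Atoh1 called at 5000 UMIs per cell, only 1 gene in cocktail and 4 in vehicle cells were at least 2-fold higher.

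The Atoh1-positive cells outside the gate were a mixture of clusters. Cluster 4 made up 31.7% of them in cocktail and 17.5% in vehicle cells, and held 87.9% and 81.2% of their Sntg1 UMIs, 75.0% and 81.1% of their Hsd11b2 UMIs and 83.9% and 76.0% of their Cadps2 UMIs. Cluster 5 (201 cells over both libraries, 77.1% with an Atoh1 UMI, 0 gated) made up 32.8% and 28.2% of them. Cluster 5 held 24.1% and 30.05% of their Tspear UMIs but 1.01% and 1.05% of their Sntg1 UMIs. A high Atoh1 level was thus found in cells with Tspear at 89.2 CPM and with Sntg1 at 1.22 and Cib3 at 2.14. Hair cell-like cluster 21 gave only 3 of the 189 cocktail and 6 of the 234 vehicle Atoh1-positive cells outside the gate. Those few cells held 41.1% and 28.2% of the Cib3 UMIs, beside 45.2% and 33.9% in cluster 4.

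Gated cells were then compared with other cells separately for those with and without an Atoh1 UMI. This split was chosen after the data had been seen. It repeats the contrast on which the genes had been picked, so nothing is read from the counts of genes. Among cells with Atoh1, Sntg1 stood at 294 in gated and 39.7 in other cocktail cells (2.89) and at 385 and 38.3 in vehicle cells (3.33). Tspear, Cib3 and Trnp1 were also at least 2-fold higher in both libraries, with ratios of 1.86, 1.65 and 1.09 in cocktail and 2.23, 1.52 and 1.41 in vehicle cells. Hsd11b2 (1.56) and Cadps2 (1.22) were so in vehicle cells, which gives 4 genes in cocktail and 6 in vehicle cells where 4.4% and 6.18% of genes were. Syn2 was lower in gated cocktail cells, at 24.9 against 51.4 in other cells (-1.05, -1.52 to -0.60), where 11.5% of genes were at least 2-fold lower. Among cells without Atoh1, 6 genes in cocktail and all 10 in vehicle cells were at least 2-fold higher in the gate, where 8.26% and 8.35% of genes were. Tspear had the largest of these ratios, 4.51 in cocktail and 4.56 in vehicle cells.

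The comparison of treatments set cocktail against vehicle within gated deep cells. Of the 10 genes, 9 were within 2-fold of each other, and Ucma stood 2-fold higher in the cocktail library. As each condition was 1 library of 5 pooled cultures, condition and library cannot be told apart. Ucma stood at 133 CPM in cocktail and 66.2 in vehicle cells (log2 ratio 1.002, 0.73 to 1.28), where 1.16% of genes were at least 2-fold higher and 1.78% lower. Without the 5% of cells with most UMIs in each library this ratio was 0.74, and from the mean of per-cell levels 0.60. Cadps2 stood at 144 in cocktail and 224 in vehicle cells (-0.64, -0.82 to -0.45), the lowest ratio of the 10, and Syn2 at 24.2 and 34.2 (-0.49). The other ratios lay between -0.10 for Mafa and 0.22 for Trnp1, with Sntg1 at 0.06, Cib3 at -0.01 and Hsd11b2 at -0.01.

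Inside the gate, with Atoh1 called from all UMIs of a cell, the higher Ucma level in cocktail lay in cells with Atoh1. With an Atoh1 UMI, Ucma stood at 166 in cocktail and 33.2 in vehicle cells (2.33, 1.87 to 2.82), where 1.9% of genes were at least 2-fold higher. This ratio lay between 2.15 and 2.61 under every alternative run. Without an Atoh1 UMI, Ucma stood at 59.97 in cocktail and 108 in vehicle cells (-0.85). With Atoh1 called at the reduced depth described above, however, Ucma in gated cocktail cells differed little between cells with and without Atoh1. The placing of the higher cocktail level in cells with Atoh1 thus depended on how Atoh1 was called. Within cluster 4 alone the gated cells with Atoh1 had 218 in cocktail (47 cells) and 50.5 in vehicle (31 cells), and those without had 92.4 (15 cells) and 144 (20 cells). Among cells without Atoh1, Sntg1 stood at 233 in cocktail and 107 in vehicle cells (1.12, 0.79 to 1.47), where 1.74% of genes were at least 2-fold higher and 4.81% lower. That difference rested on the concentrated UMIs described above, and with the highest cell of each group left out it was below 2-fold.

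Over all kept cells, Ucma stood at 63.6 in cocktail and 29.0 in vehicle cells (1.13, 0.997 to 1.27), the only one of the 10 at least 2-fold higher, where 2.67% of genes were. Hsd11b2 (0.83), Tspear (0.68) and Mafa (0.63) were higher by less than 2-fold, and Cadps2 was near equal (-0.10). The share of gated cells also differed, at 17.5% in cocktail and 10.0% in vehicle, and its part in these ratios was not tested. Outside the gate, Ucma likewise stood higher in cocktail than in vehicle deep cells, at 50.2 and 25.1. Among other cells with an Atoh1 UMI, Syn2 stood at 51.4 in cocktail and 25.1 in vehicle cells (1.04), where 3.91% of genes were at least 2-fold higher and 3.94% lower, followed by Hsd11b2 (0.95) and Ucma (0.76).

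Gated cells under 5000 UMIs formed a separate set of 114 cocktail (median 1139 UMIs) and 46 vehicle cells (median 1688 UMIs). Their place in the gate rests on a median of 31 and 39.5 Gal UMIs and of 7 and 11 Cck UMIs per cell, and 24 and 7 of them on 1 or 2 Cck UMIs. Against other cells under 5000 UMIs, 4 of the 10 genes in cocktail and 2 in vehicle cells reached 50 UMIs over both groups. The genes had been picked on gated against other cells, so nothing is read from how many were higher. Cib3 stood at 869 in gated and 52.6 in other cocktail cells (4.05), Trnp1 at 950 and 197 (2.27) and Ucma at 182 and 47.3 (1.94), where 13% of genes were at least 2-fold higher. In vehicle cells Trnp1 (2.65) and Cib3 (1.89) were higher, where 9.18% of genes were. Tspear was lower in gated cocktail cells, with 7 UMIs in gated and 68 in other cells (-1.34), where 22.2% of genes were at least 2-fold lower, but 1 cell held 60.3% of the UMIs in other cells.

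Sntg1, Tspear and Cadps2 stood lower in shallow than in deep gated cells in both libraries. Sntg1 had 1 UMI in shallow and 793 in deep gated cocktail cells, 5.05 and 275 CPM (log2 ratio -5.77, -11.07 to -3.28). In vehicle cells it had 2 and 623 UMIs (-3.68). Tspear had 7 and 1016 UMIs in cocktail (-3.32) and 3 and 731 in vehicle cells (-3.33). Cadps2 had 5 and 416 in cocktail (-2.51) and 2 and 531 in vehicle cells (-3.45). Cib3 stood at 869 in shallow and 409 in deep cocktail cells (1.09, 0.85 to 1.32) but at 286 and 410 in vehicle cells (-0.52). Trnp1 had ratios of 0.85 in cocktail and 0.79 in vehicle cells. Cib3 in cocktail cells was thus the 1 gene at least 2-fold higher, where 2.33% of genes in cocktail and 4.16% in vehicle cells were. With Syn2 in both libraries and Mafa and Ptpru in vehicle cells, 4 genes in cocktail and 6 in vehicle cells were at least 2-fold lower, where 30.2% and 30.9% of all genes tested were. The cocktail count is near the share over all genes. Syn2, with 2 and 1 UMIs in shallow cells, and Mafa, with 2, had intervals that reached past 0, and Ptpru had 0 UMIs in shallow vehicle cells.

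**Figure D4:**
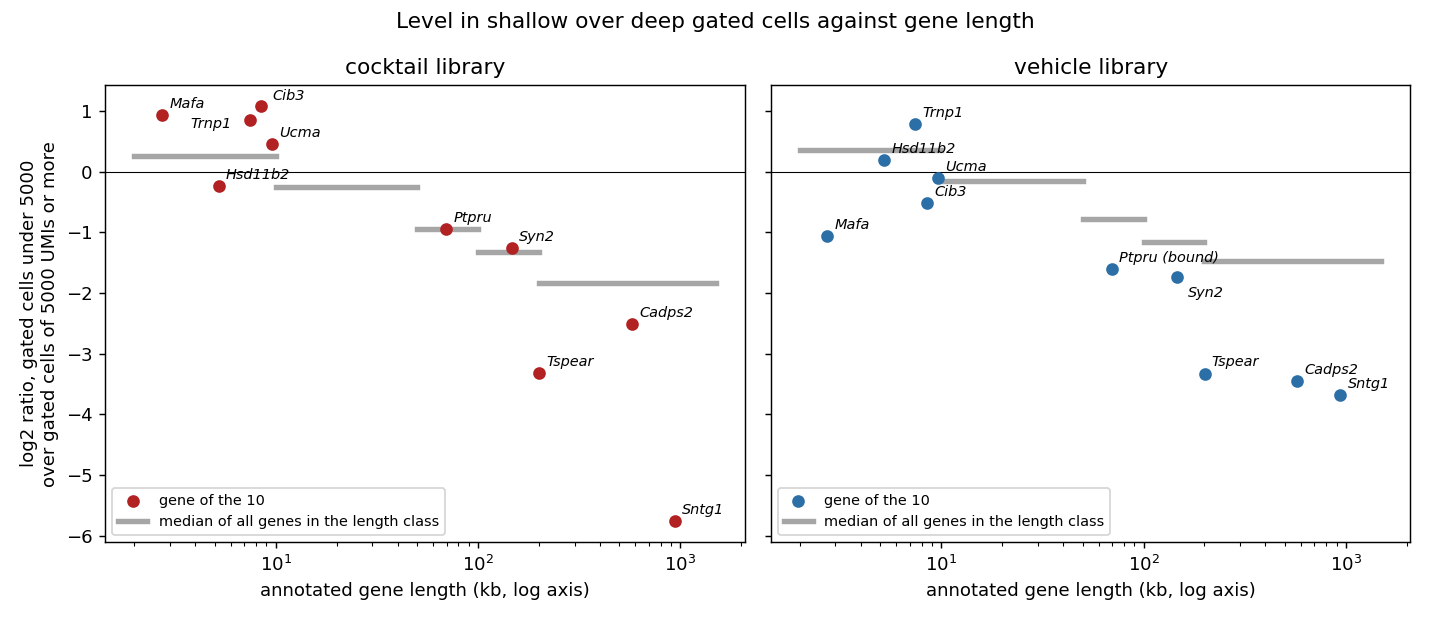
Log2 ratio of each gene's level in gated cells under 5000 over gated cells of 5000 or more UMIs, against the length of the gene in kilobases (log axis), for both libraries, with the median of all genes tested in each of 5 length bins. Sntg1 (938 kb) lay at -5.77 in cocktail and -3.68 in vehicle cells, and Trnp1 (7.45 kb) at 0.85 and 0.79.

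The ratios followed gene length, which moves with this comparison over all genes. The genes low in shallow cells in both libraries are long, with Sntg1 at 938 kb, Cadps2 at 577 kb, Tspear at 200 kb and Syn2 at 147 kb. Those not low in both are at most 69.8 kb (Ptpru), and Ucma, Cib3, Trnp1, Hsd11b2 and Mafa are under 10 kb. Over all genes tested in gated cocktail cells the median ratio was 0.26 for genes under 10 kb and -1.83 for those of 200 kb or more, and in vehicle cells 0.35 and -1.47. In other cells of the same depths the medians were -0.09 and -0.60 in cocktail and -0.01 and -0.54 in vehicle cells. Mitochondrial UMIs made up 1.38% in shallow and 2.77% in deep gated cocktail cells, and 1.39% and 3.79% in vehicle cells. The part of RNA quality in these ratios was not tested.

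Between the libraries, Cib3 in shallow gated cells stood at 869 in cocktail and 286 in vehicle cells (1.60, 1.02 to 2.23), where 2.74% of genes were at least 2-fold higher, and Trnp1 at a ratio of 0.27. No other of the 10 genes reached 50 UMIs in these cells.

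To see how the genes occurred together, each deep cell was reduced to 5000 UMIs drawn at random. Gated cells then held UMIs of a median of 3 of the 10 genes in both libraries, against 1 in other cocktail and 0 in other vehicle cells. Of the genes, 5 or more were detected in 37 of 118 gated (31.4%, 23.1 to 40.5) and 32 of 707 other cocktail cells (4.53%), and in 26 of 113 gated (23.0%) and 28 of 1045 other vehicle cells (2.68%). No UMI of any of the 10 was detected in 1 gated and 336 other cocktail cells and in 2 gated and 555 other vehicle cells. No cell held all 10, and the highest number was 9. The highest numbers outside the gate were 7 in cocktail and 8 in vehicle cells. The genes had been picked as marks of gated cells, so nothing is read from the higher numbers there. The same limit applies to the shares of single genes given below. By Atoh1, 5 or more were detected in 47.7% of gated cocktail cells with (35.1 to 60.5) and 11.3% without an Atoh1 UMI (4.27 to 23.0), while in vehicle cells the shares were 22.2% and 23.7%.

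**Figure D5:**
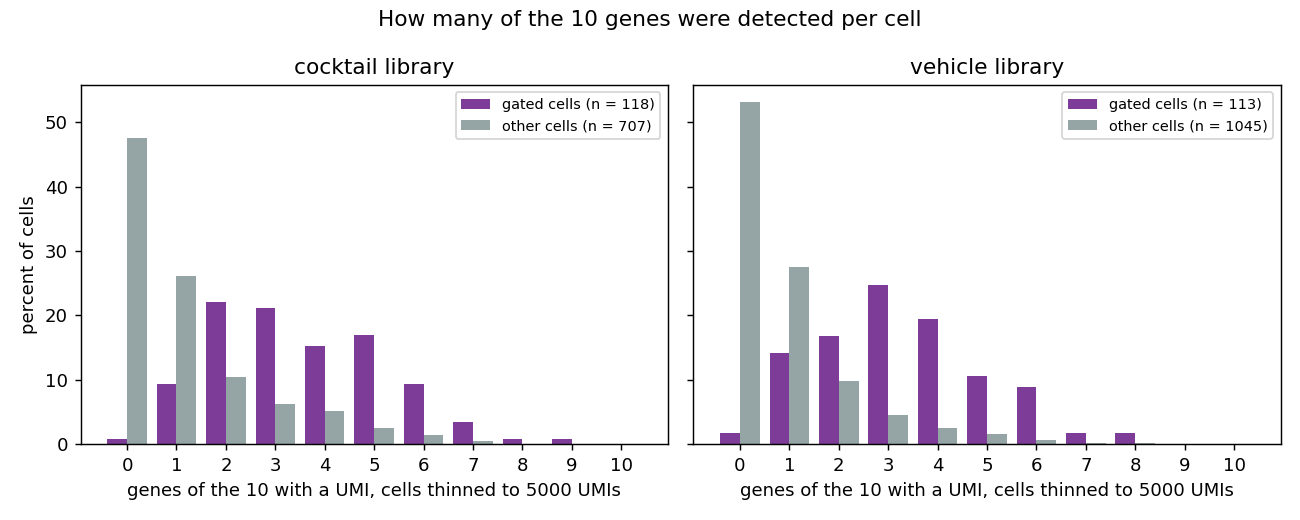
Percent of deep cells, each reduced to 5000 UMIs, by the number of the 10 genes detected (0 to 10), for gated and other cells of the cocktail and vehicle libraries. Gated cells centre on 3 genes in both libraries, while other cells pile up at 0 and 1.

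Single genes were detected in very different shares of the gated cells. At 5000 UMIs, Trnp1 was found in 85.6% of gated and 33.1% of other cocktail cells and in 83.2% and 28.0% of vehicle cells. Cib3 was found in 50.8% and 6.79% of cocktail and in 47.8% and 5.93% of vehicle cells. Sntg1 was found in 31.4% and 4.38% of cocktail and in 29.2% and 4.02% of vehicle cells, so that its summed level came from a minority of the cells. Without reduction, the Sntg1 shares were 40.7% in gated and 9.48% in other cocktail cells and 45.1% and 8.04% in vehicle cells. Fibroblast-like cells, with medians of 20190.5 and 17231 UMIs against 24010.5 and 20521 in gated deep cells, held an Sntg1 UMI in 7.53% of cocktail and 8.08% of vehicle cells. Sntg1 stood at 19.97 CPM over both libraries in fibroblast-like cluster 7, against 0 and 1.60 in fibroblast-like clusters 0 and 14. For Cib3 the fibroblast-like shares were 0% (up to 1.96% by the exact interval) and 0.51%.

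Across all deep cells the closest pair was Sntg1 and Tspear, with a Pearson r of log levels of 0.67 over 825 cocktail cells and 0.51 over 1158 vehicle cells. Inside the gate the same pair had 0.66 and 0.40. Trnp1 and Cib3, next, had 0.46 and 0.48 over all deep cells but 0.13 and 0.28 inside the gate. Syn2 and Cib3 were the least alike, at 0.03 in both libraries. Gal had an r of 0.62 with Trnp1 in both libraries over all deep cells, and of 0.00 and 0.30 inside the gate. Tspear was the gene most related to Atoh1 inside the gate, at 0.37 in cocktail and 0.28 in vehicle cells. These are descriptions across cells that share a library and vary in depth. The genes had been picked as marks of gated cells. Nothing is therefore read from their r with each other or with Gal over all deep cells.

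The genes most like each of the 10 were ranked by the lower of their r in the 2 libraries, over 12205 genes. The same limit holds for these ranks, which used all deep cells, gated and other. For Sntg1 they were Tspear, then Rbfox3 (0.57 in cocktail, 0.44 in vehicle) and Rbfox1 (0.58 and 0.42), both encoding neuronal splicing factors. For Tspear they were Dpp6 (0.70 and 0.57), which encodes a potassium channel subunit, Fstl4 (0.60 and 0.55) and Sec14l4 (0.53 and 0.59). For Cadps2 and for Syn2 the first was Rims2, an active zone scaffold, at 0.55 and 0.57 with Cadps2 and at 0.57 and 0.46 with Syn2. For Cib3 they were Efcab1 (0.56 and 0.54), Gal (0.58 and 0.53) and 9130401M01Rik (0.60 and 0.50), and for Trnp1 the list began with Pvalb (0.63 and 0.62), which encodes the calcium buffer parvalbumin, and Gal. For Mafa the list held Ptpru (0.49 and 0.43) and Insm1 (0.39 and 0.41), an endocrine and neuronal zinc finger factor. For Ptpru it began with Cbfa2t3 (0.61 and 0.49), for Hsd11b2 with Anxa4 (0.47 and 0.40) and Cib2 (0.49 and 0.37), and for Ucma with Tppp3 and Tuba4a, each at 0.43 and 0.31.

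Relatives and pathway partners of the 10 genes mostly did not share their pattern between gated and other deep cells. Of 21 genes of dense core vesicles and regulated secretion, 19 passed the minimum in each library, and 5 were higher and 5 lower by 2-fold in cocktail cells and 2 higher and 9 lower in vehicle cells. Over all genes, 7.9% and 8.3% were higher and 18.5% and 19.1% lower. Ptprn2, a dense core vesicle membrane protein, stood at 164 in gated and 52.7 in other cocktail cells (1.64) and at 253 and 46.0 in vehicle cells (2.46). Cadps, the paralogue of Cadps2, had 30.5 and 8.73 in cocktail cells (1.80) but 11.4 and 12.8 in vehicle cells (-0.17), and Cpe, a peptide-processing enzyme, had ratios of -0.23 and -1.16. Neither other synapsin was higher, with Syn1 at -1.74 and -1.61 and Syn3 at 0.07 and -0.16.

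Among 9 genes of the syntrophin and dystrophin complex, 1 was higher in each library, Dmd itself, at 178 in gated and 46.3 in other cocktail cells (1.94) and 142 and 42.7 in vehicle cells (1.73). Utrn, which encodes the dystrophin relative utrophin, had ratios of 0.56 and 0.52. Of those measured, 1 of 8 was lower in cocktail and 4 of 9 in vehicle cells. Dmd also differed with Atoh1 inside the gate of vehicle cells as Sntg1 did, at 219 with and 44.0 without an Atoh1 UMI (2.31, 1.86 to 2.79), and at 206 and 119 in cocktail cells (0.79). Of 9 genes of the CIB family and the transduction complex, 7 passed in each library. Pcdh15 (1.24) and Cdh23 (1.14), the tip link cadherins, were higher in cocktail cells, against 0.31 and -1.16 in vehicle cells. Cib2 had 0.60 and 0.45, and the channel gene Tmc1 was lower in both (-1.02 and -3.19).

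Of 8 corticosteroid genes, Scnn1a, a sodium channel subunit and aldosterone target, was higher in both libraries, at 34.3 in gated and 15.9 in other cocktail cells (1.11) and 49.8 and 21.2 in vehicle cells (1.23). Sgk1, a kinase induced by the same receptors, was lower in both (-2.06 and -1.65), and Fkbp5 was higher in vehicle cells (1.25) and at -0.21 in cocktail cells. Nr3c2, the mineralocorticoid receptor, had ratios of -0.11 and 0.35. No Gla protein or vitamin K cycle gene was higher. Mgp, the matrix Gla protein, had ratios of -8.19 and -6.68, and Vkorc1, which recycles the vitamin, -2.27 and -2.29. Maf had ratios of -3.34 and -2.74, opposite in direction to Mafa, and Ptprk and Ptprm, the relatives of Ptpru, had ratios of -0.38 and -0.66 in cocktail and -0.08 and -1.44 in vehicle cells. Lgi4, which like Tspear encodes EAR repeats, was lower in both (-2.21 and -2.37).

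By position on GRCm38, the 10 protein-coding genes form no cluster. Sntg1 spans chr1:8361475-9299878 and Cadps2 chr6:23262773-23839421, and both lie on the minus strand. Tspear spans chr10:77686569-77887021 on the plus strand, and its span overlaps keratin-associated protein genes. On their own strands, the span of Cadps2 overlaps Rnf133 and Rnf148, and that of Syn2 overlaps Gm17482. Whether such neighbours affected the counts was not tested. Trnp1 (chr4:133491100-133498550) and Ptpru (chr4:131768457-131838288) share a chromosome, as do Cadps2 and Syn2 (chr6:115134902-115282006), and Cib3 (chr8:72204335-72212837) and Hsd11b2 (chr8:105518755-105523988).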

How the data were processed

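Single-cell 3′ libraries were analysed, 2 in all and 1 per condition. The values the authors deposited are unnormalized UMI counts for each gene in each barcode, from Cell Ranger 5.0.0 per the file headers. Also named, in the submitters' processing notes, are STAR, Seurat 3.2.2 and the mouse build mm10 (GRCm38), with no roles, and the annotation release is not given in the sources used here. Barcodes under 500 UMIs, under 300 genes or over 20% mitochondrial UMIs were dropped, which removed 74 of 1403 cocktail and 104 of 1688 vehicle barcodes. The libraries held 19625208 and 23108868 UMIs. No doublet caller was run, and cells of very high depth were left out as an alternative. Counts were summed over the cells of a group and given per 1000000 UMIs with exact Poisson intervals, shares with exact Clopper-Pearson intervals, and ratios of 2 groups with exact conditional intervals, all at 95%. A gene was compared when it had at least 50 UMIs over both groups, and a difference counted when it was at least 2-fold. A count of 0 was set to 3 counts for a bound. The gene list, the gate and the marker and pathway lists were chosen with earlier results of these data known, and the split of gated and of treatment contrasts by Atoh1 was added after the data had been seen. Genes named are the 10 members, Gal, Cck, Atoh1, the targeted genes, up to 3 genes most alike per member, and up to 4 members of each pathway list with most UMIs in gated cells. Otof, Cadps, Tmc1, Sgk1 and Fkbp5, named beyond these, were chosen after their values were seen. Clusters came from Leiden clustering at resolution 1 on 2000 variable genes and 30 components, both libraries together, with scanpy 1.11.5. Gene lengths and positions came from GENCODE M21. Ratios and intervals were tested on simulated counts. Calculations used Python 3.11.15, numpy 2.4.6, scipy 1.17.1 and pandas 2.3.3.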

Additional observations from a re-analysis of the deposited data

Results flagged for a closer look

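The contrast of cells with over cells without an Atoh1 UMI inside the gate ran in opposite directions in the 2 libraries for Ucma, at a log2 ratio of 1.47 in cocktail and -1.70 in vehicle cells, and for Cib3, at -0.34 in cocktail and 0.21 in vehicle cells. Neither difference between the libraries was tested, because each condition is 1 library. The Cib3 ratios are both under 2-fold. Among cells with an Atoh1 UMI, gated over other cells also ran in opposite directions for Ucma, at 0.93 in cocktail and -0.63 in vehicle cells, again untested.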

How the results depend on the processing

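No paired analysis was possible because each condition is 1 library, and no replicate could be left out. Over 11 alternative settings, 1589 values of single genes were recomputed, of which 1322 moved by less than their counting interval, 263 moved further and 4 changed sign, while 15 were not given because a group had 0 UMIs. In shallow cocktail cells Tspear, gated over other, was 0.17 with a depth limit of 10000 UMIs and 0.19 with cells of at least 1000 UMIs. With Atoh1 called at 5000 UMIs per cell, Hsd11b2 with over without Atoh1 outside the gate was -0.52 in cocktail cells, and Sntg1 in gated cells without Atoh1, cocktail over vehicle, was -0.20. The cause of these changes was not tested. A gate of at least 60 Gal and 20 Cck per 10000 UMIs took 12.1% of cocktail and 6.63% of vehicle cells, and one of 15 and 5 took 20.8% and 13.1%. Of genes at least 2-fold higher with Atoh1 in the gate, 1 in cocktail cells became 3 with the stricter gate and 2 from means per cell, without the highest cell or with Atoh1 called at 5000 UMIs, and 2 in vehicle cells became 1 with either other gate or that Atoh1 call. Outside the gate, 7 and 7 became 1 in cocktail and 4 in vehicle cells with that call. Of genes higher in gated than other cocktail cells with Atoh1, 4 became 7 with the looser gate, and of those under 5000 UMIs, 3 became 5 at a minimum of 20 UMIs. Of genes higher in cocktail than vehicle gated cells, 1 became 0 with the stricter cell filter, without the deepest 5% of cells, scaled without Gal, Cck and mitochondrial UMIs, or from means per cell. For those without Atoh1, 1 became 0 with the looser gate, without the highest cell or with Atoh1 called at 5000 UMIs, and genes lower, 0 in the values reported, became 1 with either other gate and 2 from means per cell or without the highest cell. With Atoh1, genes lower became 1 at 2 or more Atoh1 UMIs or with that call. Genes lower in shallow than deep gated vehicle cells, 6 in the values reported, were 4 with the stricter gate and 4 from means per cell. Depth limits most the shallow gated cells, which held under 8 UMIs of Sntg1, Tspear and Cadps2 each.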
